A study of Arabidopsis thaliana with 72 samples.

Results

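The 10 genes described here are the core of the salicylate (SA) pathway in *Arabidopsis thaliana*: the synthesis genes ICS1 (AT1G74710), EDS5 (AT4G39030) and PBS3 (AT5G13320), the transcriptional activators SARD1 (AT1G73805) and CBP60g (AT5G26920), the lipase-like immune regulators EDS1 (AT3G48090) and PAD4 (AT3G52430), and the SA receptors NPR1 (AT1G64280), NPR3 (AT5G45110) and NPR4 (AT4G19660). They were taken by locus identifier from a table of 18603 genes, and all 10 were present. Leaf RNA was sequenced from 2 natural demes, the carbonate-tolerant A1(c+) and the sensitive T6(c-), neither of them a mutant or transgenic line. Plants grown in nutrient solution until 15 days old were moved to pH 8.3 with 10 mM NaHCO3 (bic), to pH 8.3 set with an organic buffer and no bicarbonate (pH 8.3), or kept at pH 5.9 as the control, and were sampled at 48 h and at 3 h. That gave 12 groups of 2 libraries, each library the sum of 3 technical replicates, and leaves of 12 plants were pooled for each line and treatment. The comparisons ask how SA genes responded to bicarbonate and to high pH alone, whether the demes differed, and how the state at 48 h differed from that at 3 h.

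Leaves make SA mainly from chorismate in the plastid. ICS1 converts chorismate to isochorismate, EDS5 exports isochorismate to the cytosol, and PBS3 conjugates it to glutamate to give a compound that breaks down to SA. SARD1 and CBP60g bind the promoters of these genes and activate them, and EDS1 with PAD4 forms the complex through which many intracellular immune receptors raise SA. NPR1 is the receptor that activates SA-responsive genes with TGA transcription factors, whereas NPR3 and NPR4 are receptors that act as repressors. The pathway is best known in leaves for defence against biotrophic pathogens.

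The 250 bases before the transcript start were read for each gene from the RefSeq TAIR10.1 annotation, because the members moved in groups and their known regulators read short motifs. Searched on both strands were the W box forms TTGACC and TTGACT read by WRKY factors, TGACG read by TGA factors, GAAATT, the core bound by SARD1 and CBP60g, and CGCG, the core bound by calmodulin-binding CAMTA factors. Matches of different motifs may share bases. Of the 10 members, 2 (EDS5 and EDS1) held TTGACT, against 18.7% of 18535 windows of genes in the table. None held TTGACC, against 12.0%. SARD1, NPR3 and NPR4 held TGACG, against 19.5%. GAAATT occurred in ICS1 only among the 10, against 33.1% of all windows, and CGCG in SARD1 only, against 10.9%. 4 of these windows are printed, 5′ to 3′ on the gene's strand, as examples of synthesis, activator and receptor genes with a match. PBS3, CBP60g, PAD4 and NPR1 held none of the searched motifs. Capitals mark every match to the searched motifs.
ICS1, chr1:28070045-28070294, plus strand: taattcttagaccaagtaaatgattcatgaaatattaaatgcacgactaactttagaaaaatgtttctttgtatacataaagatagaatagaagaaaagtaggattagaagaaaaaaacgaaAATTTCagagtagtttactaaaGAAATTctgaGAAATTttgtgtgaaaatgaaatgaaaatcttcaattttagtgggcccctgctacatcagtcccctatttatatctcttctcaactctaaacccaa
EDS5, chr4:18185187-18185436, plus strand: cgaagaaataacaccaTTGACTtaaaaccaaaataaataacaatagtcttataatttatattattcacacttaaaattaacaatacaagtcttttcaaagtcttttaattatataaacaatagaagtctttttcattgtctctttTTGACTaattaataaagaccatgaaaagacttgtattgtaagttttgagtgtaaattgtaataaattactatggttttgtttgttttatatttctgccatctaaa
SARD1, chr1:27749249-27749498, minus strand: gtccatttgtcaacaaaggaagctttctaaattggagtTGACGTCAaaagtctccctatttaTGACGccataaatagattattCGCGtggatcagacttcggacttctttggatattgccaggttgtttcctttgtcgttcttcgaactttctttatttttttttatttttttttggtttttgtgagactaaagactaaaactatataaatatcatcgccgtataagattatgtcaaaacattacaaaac
NPR3, chr5:18228518-18228767, plus strand: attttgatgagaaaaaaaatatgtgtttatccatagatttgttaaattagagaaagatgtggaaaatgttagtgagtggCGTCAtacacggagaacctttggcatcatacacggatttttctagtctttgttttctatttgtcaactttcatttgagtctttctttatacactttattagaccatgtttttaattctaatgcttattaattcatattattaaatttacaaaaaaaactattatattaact
In the ICS1 window the capitals are 3 GAAATT cores, 1 of them on the opposite strand. In SARD1 they are TGACG cores, 2 of which share the palindrome TGACGTCA, and 1 CGCG. The genes themselves follow each window directly, on chromosomes 1, 4, 1 and 5. A match is a description of the letters, not a bound site.

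The totals recovered from the log2 values ran from 63.51 to 120.58 M reads, with a median of 99.68 M. For 3 of the 24 libraries the deme named by the label was in doubt at 82 genes that separated the demes at least 8-fold in the other 21 libraries, which chose those genes. Replicate 2 labelled as A1(c+) under bic at 3 h lay nearer the T6(c-) level at 60 of the 82, the library labelled T6(c-) pH 8.3 48 h replicate 1 lay nearer the A1(c+) level at 21, and the library labelled A1(c+) pH 8.3 48 h replicate 1 lay between the levels of the demes at 33. Most results that use these groups are given with and without the 3 libraries. Without them, A1(c+) bic 3 h, A1(c+) pH 8.3 48 h and T6(c-) pH 8.3 48 h keep 1 library each. The spread for those groups then comes from the other groups, so calls on them in that setting rest on 1 library. The paired T6(c-) pH 5.9 libraries were close to identical: 14.0% of genes at 3 h and 17.5% at 48 h differed beyond counting noise, against 52.5 to 87.0% in the other groups. Bulk leaves were measured, so fewer cells of a type and less RNA per cell cannot be told apart. The sequencing did not keep strand, so reads of EDS5, SARD1 and NPR1 cannot be told apart from those of the annotated genes that overlap them, and the split of reads between EDS1 and its neighbouring near copy EDS1B is uncertain.

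Levels are given as CPM, the reads of a gene per M reads of its library. The synthesis genes and their activators had the wide ranges and the receptor NPR1 the narrow one. Between the lowest and the highest of the 24 libraries PBS3 differed 17.7-fold, EDS5 17.5-fold, CBP60g 10.6-fold, SARD1 6.41-fold and ICS1 5.55-fold. The immune regulators EDS1 and PAD4 differed 3.56-fold and 3.15-fold, and the receptors NPR4, NPR3 and NPR1 differed 4.23-fold, 2.85-fold and 1.83-fold. Over the 21 libraries not in doubt NPR4 differed 2.57-fold, below EDS1 and PAD4, and NPR3 and NPR1 differed 2.64-fold and 1.73-fold. The median gene of the table differed 3.21-fold, and 88.6% of all genes had a wider range than NPR1. Per kb of annotated exon, the median level over the 24 libraries was 18.64 CPM per kb for NPR1, 18.45 for PAD4, 16.33 for ICS1 and 13.67 for EDS1. NPR4 followed with 9.74 CPM per kb, PBS3 with 9.15, SARD1 with 8.95, CBP60g with 8.18, NPR3 with 7.48 and EDS5 with 5.66. The order of neighbours is loose, since PBS3 alone ran from 3.35 to 59.26 CPM per kb and ICS1 from 8.69 to 48.26.

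**Figure D1:**
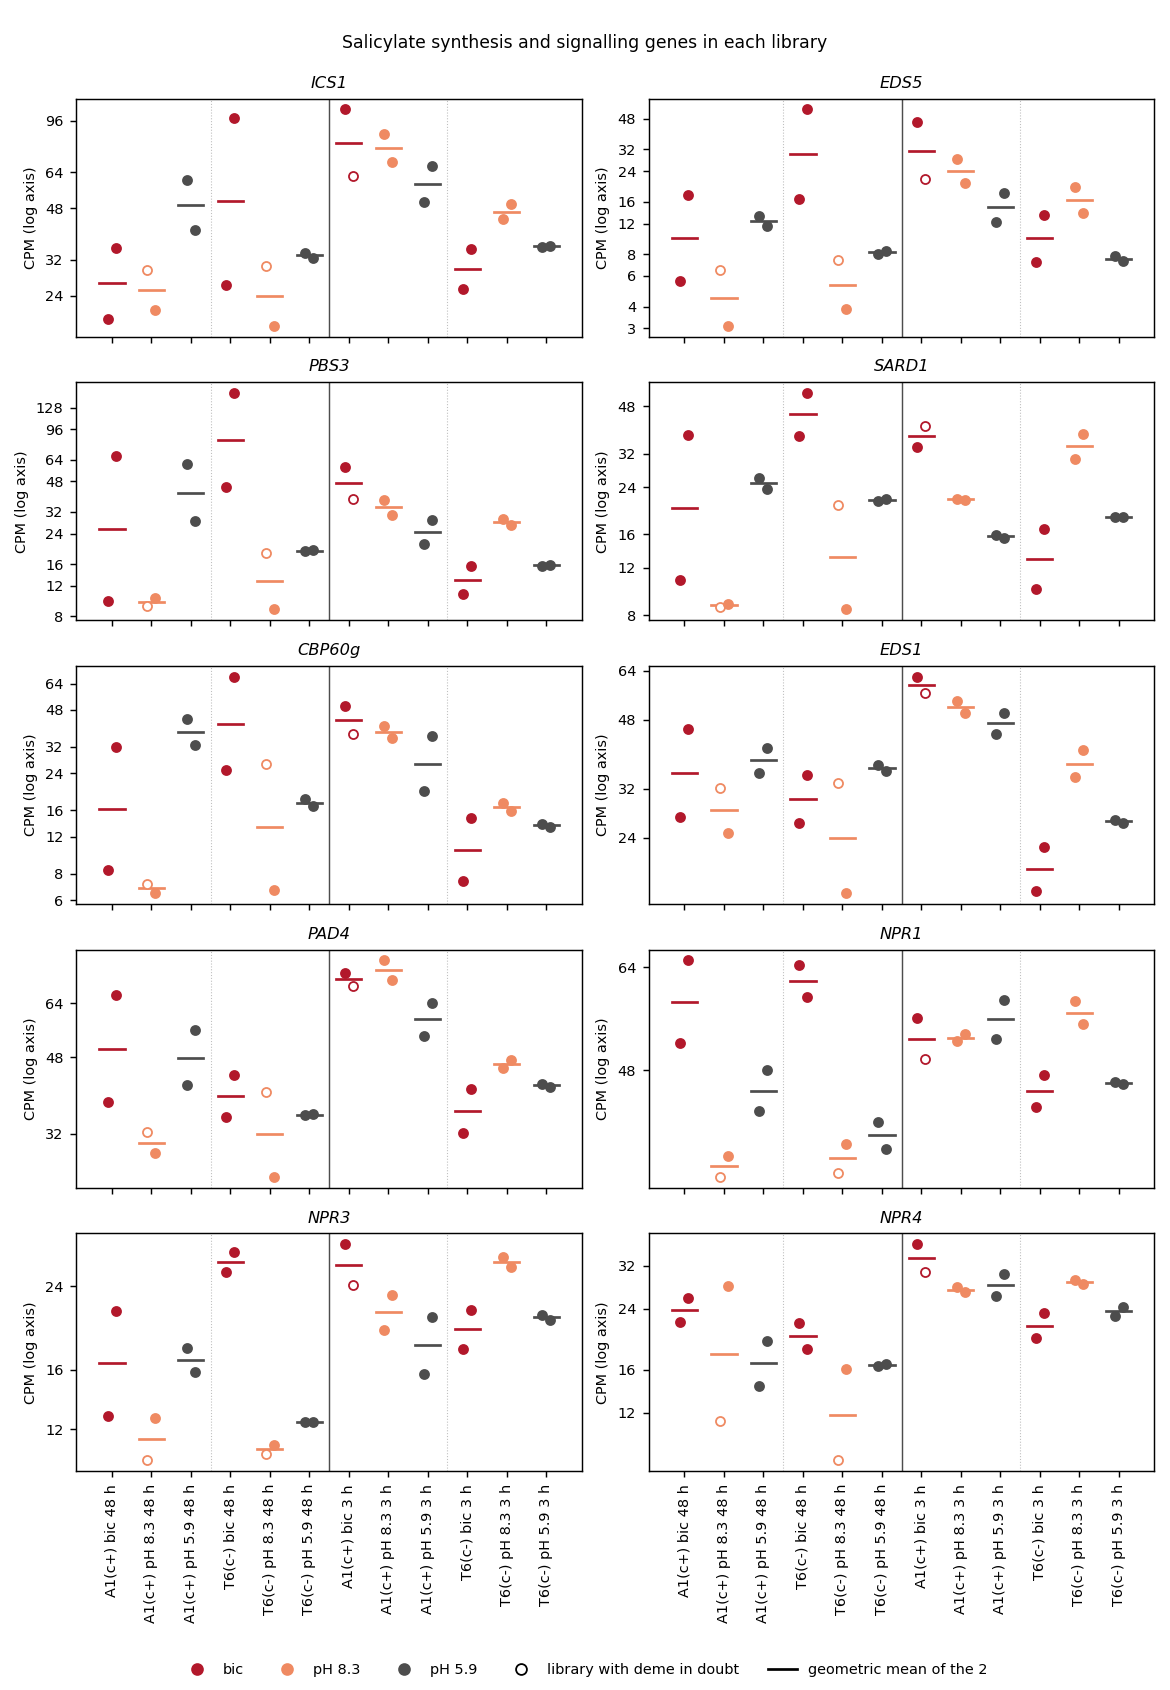
CPM on a log axis of the 10 SA genes in each of the 24 libraries, 2 points a group, with white points for the 3 libraries whose deme is in doubt and a line at the geometric mean. PBS3 reached 155 CPM in T6(c-) bic 48 h, and NPR1 stayed between 35.6 and 65.3 CPM in all libraries.

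At 3 h, neither bic nor pH 8.3 gave a called change in any SA gene in either deme. A gene was called when its adjusted p was under 0.05 (limma, Benjamini-Hochberg over 18603 genes, two-sided) and its log2 fold change was beyond 1 in either direction. In A1(c+), bic against pH 5.9 called 0 of 10 members, and 0.0161% of all genes were called. With pH 8.3 against pH 5.9 in A1(c+) it called 0 of 10 against 2.13% of all genes, and with bic against pH 8.3 it called 0 of 10 against 0.0215%. In T6(c-), 0 of 10 members and 0% of all genes were called for bic against pH 5.9, for pH 8.3 against pH 5.9 and for bic against pH 8.3, although 1615, 1808 and 954 genes had an unadjusted p under 0.05 in these 3 comparisons. Among the members, 0, 1 and 4 did in T6(c-), and 2, 0 and 0 did in the same order in A1(c+). Without the 3 libraries in doubt still no member was called at 3 h, but more genes of the table were. In A1(c+) these were 5.31% of all genes for bic against pH 5.9, 7.43% for pH 8.3 against pH 5.9 and 0% for bic against pH 8.3, and in T6(c-), whose 3 h libraries are not in doubt and enter through the shared estimate of spread, 298, 317 and 59 genes in the same order. These treatment comparisons share their control libraries within each deme and time.

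Under bic at 3 h, 9 of the 10 members had a positive log2 fold change against pH 5.9 in A1(c+) and 1 of 10, EDS5, did in T6(c-), none of them called. ICS1, the entry enzyme, had 105 CPM in A1(c+) bic replicate 1 and 61.9 CPM in replicate 2, whose deme is in doubt, against 50.7 and 67.3 CPM at pH 5.9. In T6(c-) it had 25.3 and 34.8 CPM under bic, against 35.5 and 35.8 CPM at pH 5.9. The A1(c+) groups overlapped only through the library in doubt, and the T6(c-) groups did not overlap. EDS5, the isochorismate exporter, had 46.0 and 21.6 CPM under bic, against 12.3 and 17.9 CPM at pH 5.9 in A1(c+). In T6(c-) EDS5 had 7.25 and 13.4 CPM under bic, against 7.83 and 7.29 CPM at pH 5.9. SARD1, the activator of ICS1, had 33.9 and 40.6 CPM under bic in A1(c+), against 15.96 and 15.5 CPM at pH 5.9. In T6(c-) SARD1 had 10.0 and 16.8 CPM, against 18.6 and 18.6 CPM. PBS3 had 58.0 and 37.9 CPM in A1(c+), against 20.9 and 28.7 CPM. In T6(c-) PBS3 had 10.8 and 15.6 CPM, against 15.7 and 15.8 CPM. For SARD1 and PBS3 the groups did not overlap in either deme. In T6(c-) the nearest PBS3 libraries of the groups had 15.64 and 15.67 CPM. The share of all genes without overlap was not computed for these treatment comparisons, so lack of overlap only describes the libraries. The second A1(c+) bic value of each gene is from the library in doubt. Under bic at 3 h the median log2 fold change of the 10 members was 0.52 in A1(c+), where that of all genes was -0.19, and -0.23 in T6(c-), where that of all genes was -0.07. Without the libraries in doubt the A1(c+) median was 0.78. Under pH 8.3 the members' median was 0.39 in both demes.

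**Figure D2:**
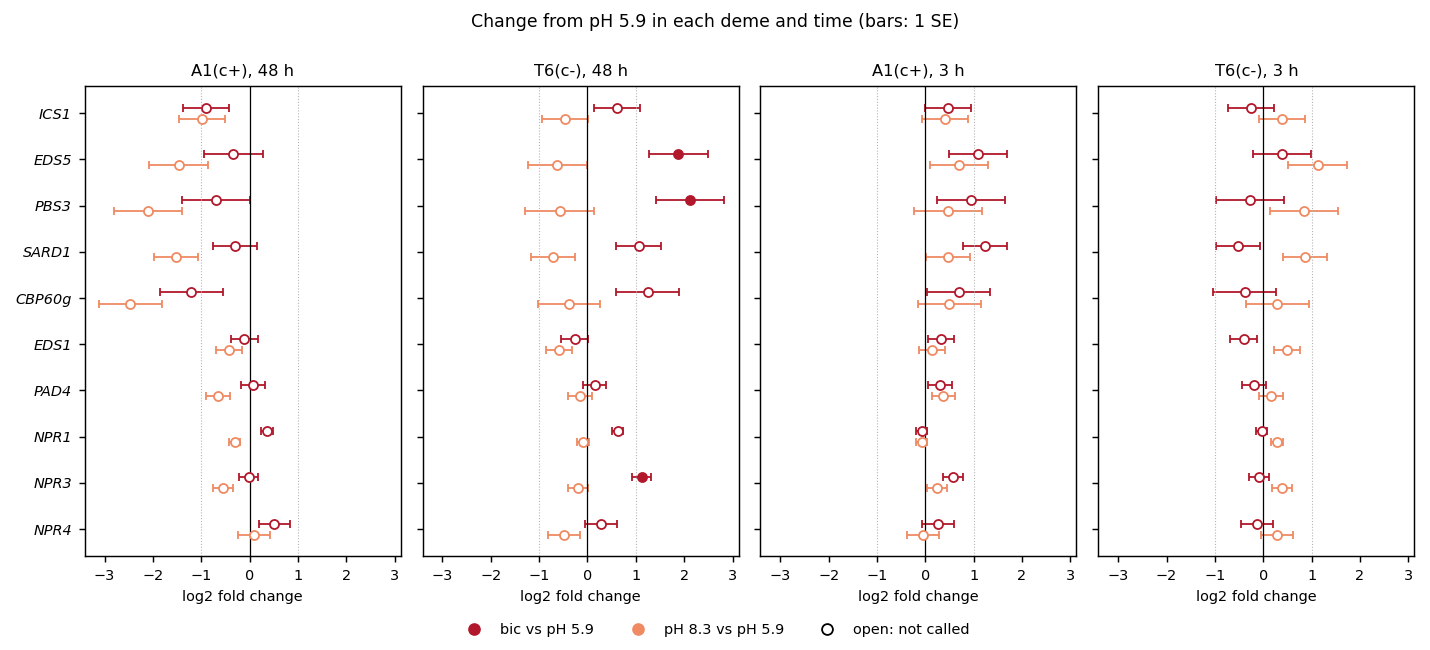
Log2 fold changes with bars of 1 SE for the 10 SA genes in each deme and time under each treatment, filled where called. The treatments are bic over pH 5.9 and pH 8.3 over pH 5.9, and the filled points are EDS5 (1.88), PBS3 (2.12) and NPR3 (1.12) in T6(c-) at 48 h under bic.

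Under bic at 3 h EDS1, PAD4 and SARD1 were called higher in A1(c+) than in T6(c-), and in all 10 members both A1(c+) libraries lay above both T6(c-) libraries, as they did for 15.5% of all genes. The count called was 3 of 10, where 4.24% of all genes were called. EDS1 had 61.7 and 56.1 CPM in A1(c+), against 17.5 and 22.7 CPM in T6(c-), and its log2 fold change was 1.56 (SE 0.275, adjusted p = 0.00794 by limma). PAD4, the partner of EDS1, had 75.2 and 70.1 CPM in A1(c+), against 32.2 and 40.7 CPM in T6(c-), with a log2 fold change of 1.00 and adjusted p = 0.0229. SARD1, the activator of ICS1, had 33.9 and 40.6 CPM in A1(c+), against 10.0 and 16.8 CPM in T6(c-), with 1.52 and adjusted p = 0.0493. In each of these the second A1(c+) value is that of the library in doubt. Without the 3 libraries in doubt the A1(c+) group held 1 library. The log2 fold changes were then 1.63 for EDS1, 1.06 for PAD4 and 1.38 for SARD1. They were 1.82 for ICS1, 2.22 for EDS5 and 2.27 for CBP60g, which had adjusted p of 0.0657, 0.0867 and 0.0582 with all libraries. The calls rested on few libraries. EDS1 had adjusted p = 0.0776 without T6(c-) bic 3 h replicate 1. PAD4 had 0.098 without A1(c+) bic 3 h replicate 1, 0.183 without T6(c-) bic 3 h replicate 1 and 0.0783 without T6(c-) bic 3 h replicate 2, and with a pseudocount of 1 CPM its log2 fold change of 0.985 lay under the fold limit. SARD1 lost its call without any 1 of 18 libraries, with adjusted p up to 0.307.

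In the other conditions no member passed both limits between the demes with all libraries. No member was called at pH 5.9 and 3 h (4.73% of all genes), at pH 8.3 and 3 h (11.3%), at pH 5.9 and 48 h (7.65%), at pH 8.3 and 48 h (0.817%) or under bic at 48 h (10.5%), and at unadjusted p under 0.05 the members numbered 2, 1, 0, 0 and 4. Under bic at 48 h the members were, at the median, lower in A1(c+) by a log2 difference of -0.82, with that of all genes at -0.17. EDS5 (-1.61, adjusted p = 0.071) and SARD1 (-1.16, 0.0852) fell short of the threshold there, and without the libraries in doubt both passed it, with 0.0368 and 0.0472, although the doubtful libraries enter that comparison only through the shared estimate of spread. Over the mean of the 6 conditions, 0 of 10 members passed both limits, where 10.4% of all genes did. EDS1 (0.565, SE 0.112, adjusted p = 0.000925) and PAD4 (0.493, SE 0.1, adjusted p = 0.00109) had low p but lay under the fold limit.

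**Figure D3:**
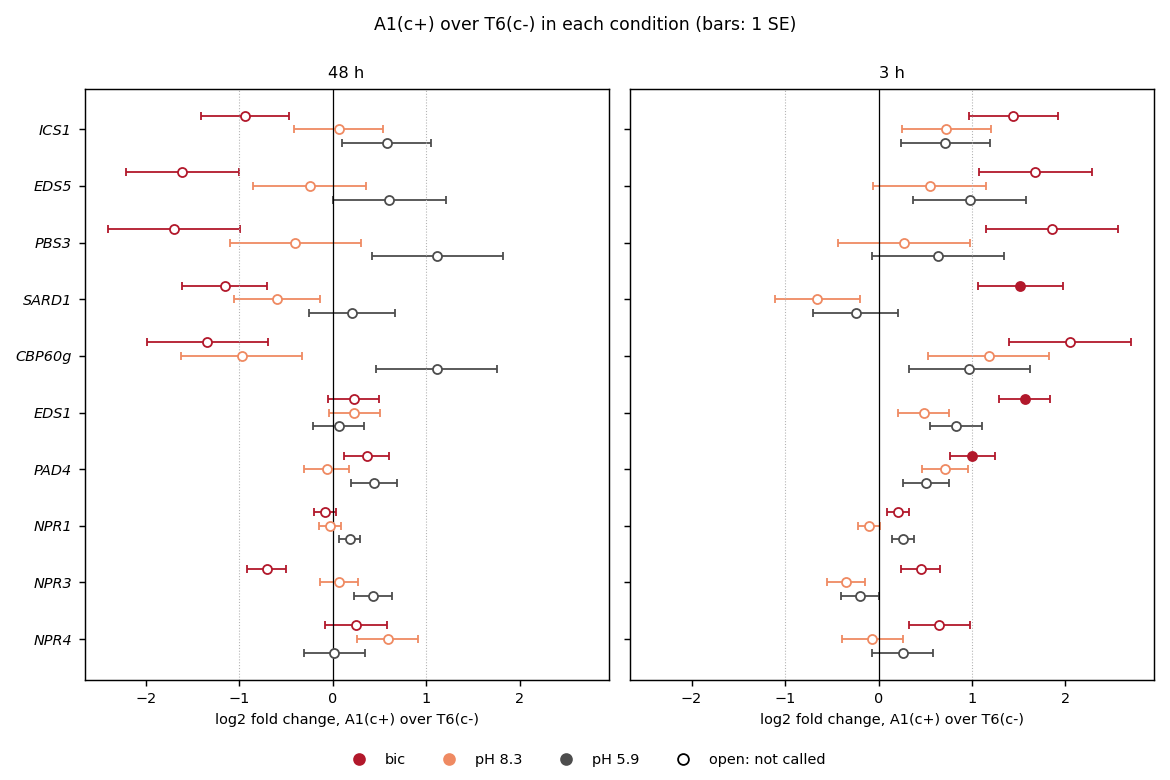
Log2 fold change of A1(c+) over T6(c-) with bars of 1 SE for each SA gene in each condition, filled where called. Only bic at 3 h has filled points, for SARD1, EDS1 and PAD4, and under bic at 48 h most points lie below 0.

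At 48 h under bic in T6(c-), EDS5, PBS3 and NPR3 rose above pH 5.9, which is 3 of 10 members where 18.9% of all genes were called. EDS5 had 16.7 and 54.4 CPM under bic, against 7.99 and 8.40 CPM at pH 5.9 (log2 fold change 1.88, SE 0.604, adjusted p = 0.0222 by limma). PBS3 had 44.5 and 155 CPM under bic, against 18.9 and 19.2 CPM at pH 5.9 (2.12, SE 0.704, adjusted p = 0.0257). NPR3 had 25.7 and 28.2 CPM under bic, against 12.4 and 12.4 CPM at pH 5.9 (1.12, SE 0.206, adjusted p = 0.000719). The bic replicates of NPR3 lay close together, whereas replicate 2 lay far above replicate 1 for EDS5 and PBS3. ICS1 showed this spread too, with 26.2 and 98.6 CPM under bic, against 33.8 and 32.5 CPM at pH 5.9 (0.62, adjusted p = 0.318). Without T6(c-) bic 48 h replicate 2, EDS5 gave 1.03 with adjusted p = 0.259 and PBS3 gave 1.22 with 0.265. Without either T6(c-) pH 5.9 48 h library, EDS5 had adjusted p of 0.0919 and 0.0812 and PBS3 0.0965 and 0.094.

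NPR1, the activating receptor, had 64.4 and 59.0 CPM under bic, against 41.5 and 38.5 CPM at pH 5.9 in T6(c-) at 48 h. Its log2 fold change of 0.625 (SE 0.117, adjusted p = 0.000824) passed the p limit and not the fold limit. SARD1 had 37.3 and 53.8 CPM under bic, against 21.3 and 21.8 CPM at pH 5.9 (1.06, adjusted p = 0.0777), and CBP60g had 24.8 and 68.9 CPM, against 18.1 and 16.8 CPM (1.25, 0.138). Both activators were higher in both bic libraries, and neither passed the test. The members' median of 0.84 stood beside 0.30 over all genes, and 9 of 10 were positive. When the column medians were set equal, the all-gene median in this comparison moved to 0.01, NPR3 went to 0.82 with adjusted p = 0.0143, which is under the fold limit, and PBS3 lost its call. In the same T6(c-) bic 48 h libraries the summed leaf markers had 19207 and 14476 CPM, against 55129 and 54654 CPM at pH 5.9, and the root marker PYK10, the only 1 of 5 listed root markers in the table, had 181 and 507 CPM, against 139 and 143 CPM. Their part in these results was not tested.

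In A1(c+) at 48 h, bic against pH 5.9 called 0 of 10 members, where 0.333% of all genes were called (3.2% without the libraries in doubt) and 1 member had an unadjusted p under 0.05. The A1(c+) bic replicates differed widely. PBS3 had 9.81 and 67.0 CPM under bic, against 60.1 and 28.5 CPM at pH 5.9, and EDS5 had 5.59 and 17.4 CPM, against 13.3 and 11.7 CPM. Groups overlapped for both. NPR3 had 12.8 and 21.3 CPM under bic, against 17.8 and 15.8 CPM at pH 5.9. Its response to bic differed between the demes by -1.14 on the log2 scale (SE 0.292, adjusted p = 0.0309), the single member of 10 called for the difference of responses at 48 h, where 4.15% of all genes were called. The call was lost without either A1(c+) pH 5.9 48 h library, without A1(c+) bic 48 h replicate 1 (-0.77, adjusted p = 0.113), without either T6(c-) pH 5.9 48 h library and without T6(c-) bic 48 h replicate 2 (-1.07, adjusted p = 0.116). Without the libraries in doubt CBP60g was called as well (-2.45, adjusted p = 0.0486, with 0.121 for all libraries). The difference of responses called 0 of 10 members for bic at 3 h (0% of all genes, 1491 genes and 2 members at unadjusted p under 0.05), for pH 8.3 at 3 h (0%, 1357 genes and 1 member), where without the libraries in doubt 20 and 111 genes were called, and for pH 8.3 at 48 h (0.134%, 1 member).

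High pH without bicarbonate gave low values at 48 h in both demes, and none passed the test with all libraries. In A1(c+), 0 of 10 members were called for pH 8.3 against pH 5.9, where 1.03% of all genes were, and 7 members had an unadjusted p under 0.05. CBP60g had 7.17 CPM in the library labelled A1(c+) pH 8.3 48 h replicate 1 and 6.47 CPM in replicate 2, against 43.5 and 32.6 CPM at pH 5.9. Its log2 fold change was -2.47 (SE 0.649, adjusted p = 0.0756), or -2.54 with adjusted p = 0.0533 without the libraries in doubt. PBS3 had 9.21 and 10.2 CPM, against 60.1 and 28.5 CPM (-2.099, adjusted p = 0.151). The groups did not overlap for either gene, and the share of all genes without overlap was not computed. In T6(c-), 0 of 10 were called against 0.156% of all genes. EDS1 in T6(c-) had 33.2 CPM in the library labelled T6(c-) pH 8.3 48 h replicate 1 and 17.3 CPM in replicate 2, against 36.8 and 35.6 CPM at pH 5.9. Without the library in doubt, which left 1 library in that group, the log2 fold change of EDS1 was -1.06. With both it was -0.59 (adjusted p = 0.318 by limma). Leaving out A1(c+) bic 48 h replicate 1 or 2, which enter only through the shared estimate of spread, gave 3 called members over the 4 comparisons of pH 8.3 with pH 5.9.

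Bic and pH 8.3 share their pH, and at 48 h the SA genes were high under bic relative to pH 8.3 in T6(c-). EDS5, PBS3, SARD1 and NPR3 rose, 4 of 10 members where 20.4% of all genes were called, and the members' median log2 fold change was 1.19 beside 0.25 for all genes. EDS5 had 16.7 and 54.4 CPM under bic, against 7.37 and 3.85 CPM at pH 8.3 (2.501, adjusted p = 0.00446). PBS3 had 44.5 and 155 CPM, against 18.6 and 8.76 CPM (2.70, adjusted p = 0.00698). SARD1 had 37.3 and 53.8 CPM under bic, against 20.6 and 8.40 CPM at pH 8.3 (1.77, adjusted p = 0.00674). NPR3, with 25.7 and 28.2 CPM against 10.7 and 11.1 CPM, changed by 1.31 (adjusted p = 0.000289). The 2 groups of each of these 4 genes did not overlap, and the share of all genes without overlap was not computed. The first pH 8.3 value of each is from the library in doubt. Without the doubtful libraries all 4 stayed called, with 2.97 for EDS5 (0.00407), 3.25 for PBS3 (0.0112), 2.42 for SARD1 (0.00288) and 1.27 for NPR3 (0.00166), and CBP60g was called too (2.63, adjusted p = 0.00999, against 1.63 and 0.0567). Without T6(c-) bic 48 h replicate 2, EDS5 had adjusted p = 0.0788, PBS3 0.107 and SARD1 0.0662, and without T6(c-) pH 8.3 48 h replicate 2 PBS3 had 0.0598 and SARD1 0.0871. In A1(c+) at 48 h, 0 of 10 were called for bic against pH 8.3, where 4.59% of all genes were. All 10 fold changes were positive with a median of 0.69, or 0.71 without the libraries in doubt.

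In T6(c-) under bic, EDS5, PBS3, SARD1 and CBP60g were higher at 48 h than at 3 h, 4 of 10 members where 21.9% of all genes were called. PBS3 had 44.5 and 155 CPM at 48 h, against 10.8 and 15.6 CPM at 3 h (2.68, adjusted p = 0.00737), and CBP60g had 24.8 and 68.9 CPM, against 7.39 and 14.7 CPM (1.99, adjusted p = 0.0234). SARD1 had 37.3 and 53.8 CPM, against 10.0 and 16.8 CPM (1.79, adjusted p = 0.00629), and EDS5 had 16.7 and 54.4 CPM, against 7.25 and 13.4 CPM (1.61, adjusted p = 0.044). The 48 h and 3 h libraries did not overlap for any of the 4, with no share of all genes computed beside it. In the order PBS3, CBP60g, SARD1 and EDS5, without T6(c-) bic 48 h replicate 2 they had adjusted p of 0.109, 0.231, 0.0618 and 0.411, and without T6(c-) bic 3 h replicate 1 they had 0.0583, 0.175, 0.0731 and 0.258. EDS5 lost its call in 15 of 24 omissions of 1 library. At pH 8.3 in T6(c-), 3 of 10 were called and fell at 48 h, where 8.75% of all genes were called. These were NPR3 (-1.30, adjusted p = 0.00101), with 10.7 and 11.1 CPM at 48 h, against 27.6 and 26.3 CPM at 3 h, NPR4 (-1.27, adjusted p = 0.0155), with 8.74 and 16.1 CPM, against 29.1 and 28.3 CPM, and SARD1 (-1.37, adjusted p = 0.0491), with 20.6 and 8.40 CPM, against 30.6 and 37.9 CPM. The times did not overlap for these 3, again with no share of all genes computed. NPR3 kept its call without the library in doubt (-1.27, adjusted p = 0.00322), SARD1 did so too (-2.02, 0.0128), and NPR4 went under the fold limit (-0.84). EDS5 (-2.09, adjusted p = 0.0358) and EDS1 (-1.10, 0.00904) were then called. SARD1 lost its call in 19 of 24 omissions, with adjusted p up to 0.33, and NPR4 without either T6(c-) pH 8.3 3 h library (0.098 and 0.0765) or without the library in doubt (0.128).

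In A1(c+) the synthesis genes ICS1 and EDS5 were lower at 48 h than at 3 h in both high-pH treatments. At pH 8.3, 4 of 10 members fell (10% of all genes called), and under bic 2 of 10 fell (12.8%). ICS1 at pH 8.3 had 29.4 and 21.5 CPM at 48 h, against 86.5 and 69.1 CPM at 3 h (-1.62, adjusted p = 0.0292), and EDS5 had 6.51 and 3.10 CPM, against 28.1 and 20.5 CPM (-2.42, adjusted p = 0.0135). CBP60g, the activator, had 7.17 and 6.47 CPM, against 40.2 and 35.3 CPM (-2.47, adjusted p = 0.0175). PAD4 had 32.3 and 28.8 CPM, against 80.3 and 72.3 CPM (-1.32, adjusted p = 0.00239), and it kept its call without each of the 24 libraries in turn. Without the libraries in doubt the 4 stayed called, with -1.85, -2.95, -2.54 and -1.40, and EDS1 was called too (-1.07, adjusted p = 0.0105). ICS1 lost its call without either A1(c+) pH 8.3 3 h library (0.151 and 0.0886) or without A1(c+) pH 8.3 48 h replicate 2 (0.0972), EDS5 without the same 3 (0.0953, 0.0525 and 0.0695), and CBP60g without either 3 h library (0.0952 and 0.0775). Under bic ICS1 had 19.96 and 35.2 CPM at 48 h, against 105 and 61.9 CPM at 3 h (-1.61, adjusted p = 0.0201, or -1.99 and 0.0196 without the libraries in doubt), and EDS5 changed by -1.68 (0.0484, or -2.22 and 0.0251). ICS1 lost this call without A1(c+) bic 3 h replicate 1 (0.121) or A1(c+) bic 48 h replicate 1 (0.139), and EDS5 in 16 of 24 omissions (up to 0.36). At pH 5.9 no member was called in A1(c+) (15.1% of all genes) or in T6(c-) (9.22%), with 2 and 1 at unadjusted p under 0.05. The EDS5 changes over time in the 2 demes under bic had opposite signs. ICS1 in T6(c-) under bic was not called, with 26.2 and 98.6 CPM at 48 h, against 25.3 and 34.8 CPM at 3 h. The positive sign of that ICS1 change rested on 48 h replicate 2. The difference between the demes in the change over time was not tested.

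**Figure D4:**
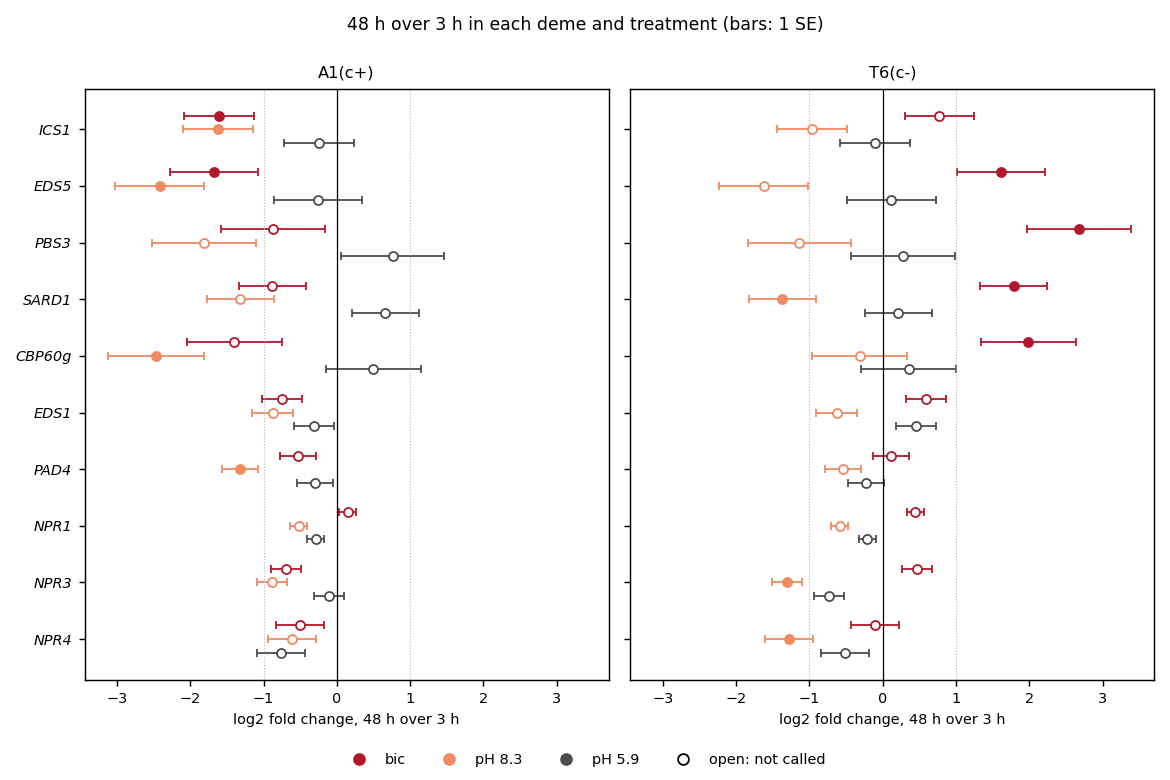
Log2 fold change of 48 h over 3 h with bars of 1 SE for each SA gene, by deme and treatment, filled where called. EDS5 under bic lies at 1.61 in T6(c-) and at -1.68 in A1(c+), and the pH 5.9 points are open in both demes.

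Beside the 10 members, 50 other SA genes were listed in 6 groups. In T6(c-) at 48 h under bic against pH 5.9, 13 of the 50 rose and none fell, with a median log2 fold change of 0.74, where 18.9% of all genes were called. The 13 were 4 of 7 other synthesis genes, 3 of 6 inactivation genes, 3 of 13 upstream genes, 2 of 10 NPR partners, 1 of 7 WRKY genes and 0 of 7 SA-responsive target genes. ICS2, the second isochorismate synthase gene, had 77.8 and 70.9 CPM under bic, against 1.79 and 1.46 CPM at pH 5.9 (5.52, SE 0.471, adjusted p = 3.64e-06). Its locus overlaps another annotated gene, from whose reads it cannot be told apart. In A1(c+) bic at 48 h it had 8.26 and 4.14 CPM. PAL4, a phenylalanine ammonia-lyase gene, had 30.9 and 45.9 CPM under bic in T6(c-), against 6.51 and 6.35 CPM at pH 5.9 (2.55, adjusted p = 0.00119). AIM1, a peroxisomal beta-oxidation gene, had 212 and 225 CPM, against 87.8 and 88.8 CPM (1.31, adjusted p = 0.000121).

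Among the genes that convert SA to inactive forms, BSMT1, the methyltransferase that makes methyl salicylate, had 29.9 and 30.1 CPM under bic in T6(c-) at 48 h, against 0.176 and 0.102 CPM at pH 5.9 (7.81, adjusted p = 0.00129), and 0.022 and 1.34 CPM in A1(c+) under bic at 48 h. UGT74F2, a SA glucosyltransferase gene, had 97.5 and 191 CPM, against 18.2 and 18.2 CPM (2.90, adjusted p = 0.00564). UGT76B1, a glucosyltransferase gene acting on SA and N-hydroxypipecolate, had 9.96 and 28.0 CPM, against 2.04 and 2.26 CPM (2.96, adjusted p = 0.029). The bic and pH 5.9 libraries of these 3 did not overlap, and the share of all genes without overlap was not computed. CAMTA3, a calmodulin-binding repressor of SA synthesis genes, rose by 1.14 (adjusted p = 0.00188) and lay under the fold limit when the column medians were set equal. ICS2, PAL4, AIM1, BSMT1 and CAMTA3 kept their calls without each of the 24 libraries in turn. The other 8 did not, of which UGT74F2, UGT76B1, ALD1, SARD4, TGA1 and WRKY28 lost it without T6(c-) bic 48 h replicate 2, with adjusted p from 0.0591 for UGT74F2 to 0.288 for ALD1. PAL1 lost it without any 1 of the 4 libraries compared, with adjusted p up to 0.0668, and TGA7 without T6(c-) bic 48 h replicate 1 (0.107) or either pH 5.9 library.

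The SA-responsive PR genes were not called in T6(c-) under bic at 48 h. PR1 changed by 0.74 against pH 5.9 (adjusted p = 0.716), PR2 by 0.99 (0.502) and PR5 by -1.12 (0.306), and WRKY70, a regulator of SA responses, by 0.13 (0.837). PR1 ran from 1.14 CPM in T6(c-) bic 3 h replicate 1 to 361 CPM in T6(c-) pH 8.3 3 h replicate 2. Against pH 8.3 at 48 h in T6(c-), 31 of the 50 other genes rose and none fell, with a median of 1.40, where 20.4% of all genes were called and the median of all genes was 0.25. PR1 (4.75, adjusted p = 0.0191) and PR2 (3.33, 0.027) were among the 31, as were all 7 WRKY genes. The PR calls were lost without T6(c-) bic 48 h replicate 2 or T6(c-) pH 8.3 48 h replicate 2, and PR1 also without T6(c-) pH 8.3 48 h replicate 1 and PR2 without T6(c-) bic 48 h replicate 1, with adjusted p up to 0.151 for PR1 and 0.213 for PR2. In A1(c+) under bic at 48 h none of the 50 was called against pH 5.9. Between the demes under bic at 48 h, 11 of 50 were lower in A1(c+) and none higher, where 10.5% of all genes were called and 1431 of those 1954 calls were lower in A1(c+). ICS2 lay at -3.67 (adjusted p = 0.00051), UGT76B1 at -4.89 (0.00528) and BSMT1 at -7.45 (0.0058). The size for BSMT1 is loose, since its 0.022 CPM in A1(c+) bic 48 h replicate 1 lies near the floor set by the count added to each gene. Without A1(c+) bic 48 h replicate 1 or T6(c-) bic 48 h replicate 2, UGT76B1 (adjusted p up to 0.0774) and BSMT1 (0.0558) lost the call, and ICS2 kept it throughout. Under bic at 3 h, 6 of 50 were higher in A1(c+) and 1 lower, where 4.24% of all genes were called, or 15.1% without the libraries in doubt. The 6 were NIMIN1 (2.39, adjusted p = 0.0247), an NPR1 interactor, the transcription factors WRKY70 (1.55, 0.043) and WRKY46, EDS1B, SARD4 and ADR1-L1, and the lower 1 was PAL4 (-1.78, 0.0404). Without the libraries in doubt NIMIN1 (adjusted p = 0.0496), WRKY70 (1.53, 0.000736) and PAL4 (-2.44, 0.00332) stayed called. NIMIN1 lost its call without any 1 of the 4 libraries compared (adjusted p up to 0.182), WRKY70 in 18 of 24 omissions (0.252) and PAL4 in 11 (0.273).

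**Figure D5:**
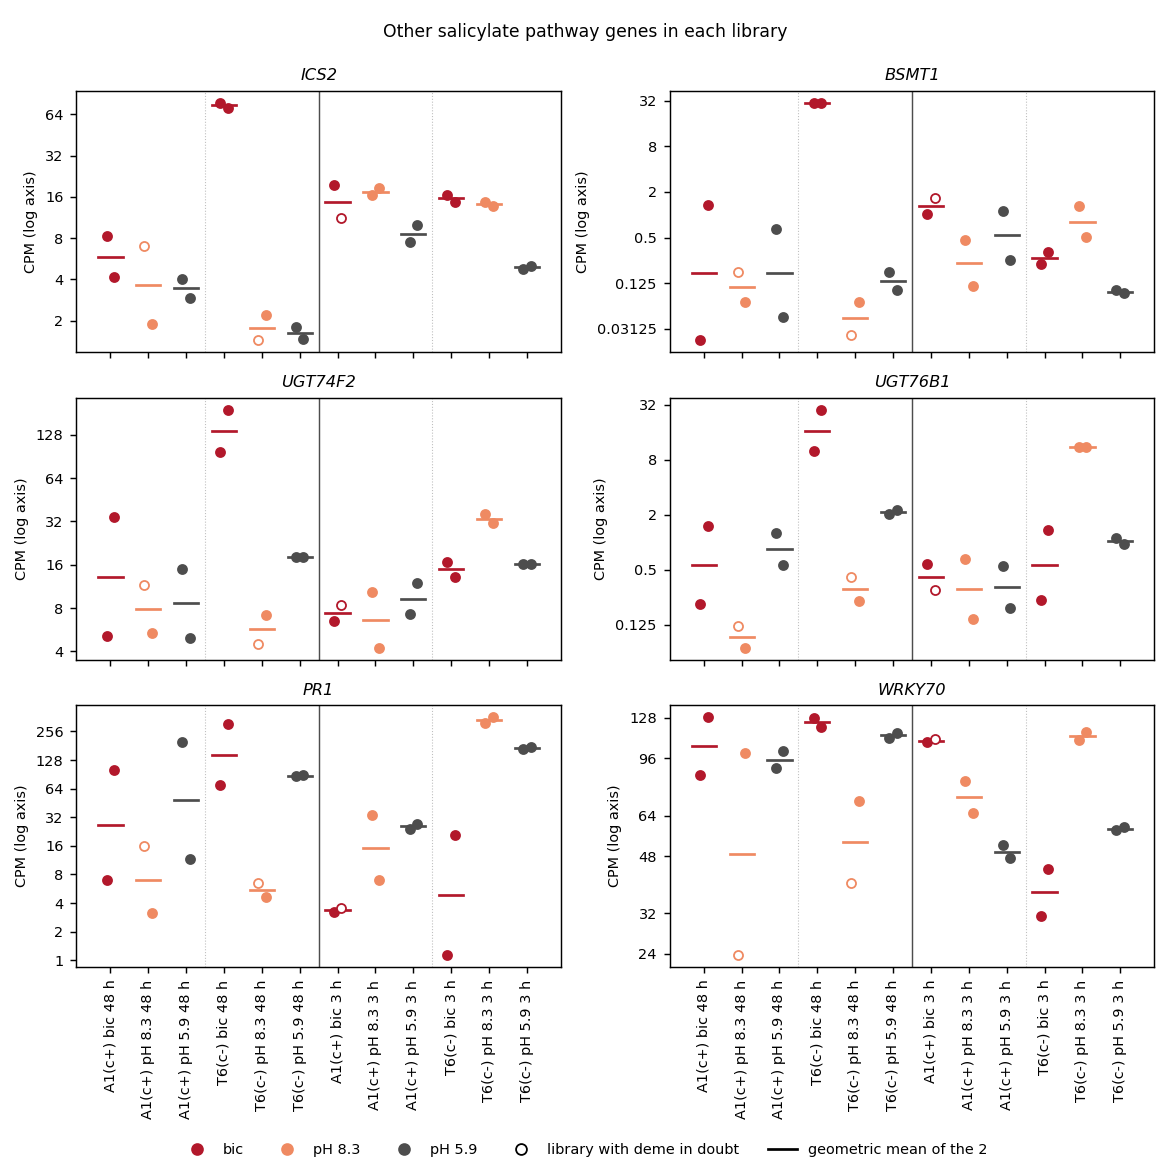
CPM on a log axis of ICS2, BSMT1, UGT74F2, UGT76B1, PR1 and WRKY70 in each of the 24 libraries, with white points for the libraries whose deme is in doubt and a line at the geometric mean of each group. ICS2 (77.8 and 70.9 CPM) and BSMT1 (29.9 and 30.1 CPM) are highest in T6(c-) bic 48 h.

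How alike the members were in pattern over the 24 libraries varied from pair to pair. It was taken as Pearson's r of log2 CPM, a description in which the libraries share depth and treatment. The 3 genes most like each member were found over the whole table. ICS1 was nearest AT5G25260 (0.939), BON1 (0.892) and PUB54 (0.891), EDS5 nearest AT5G25260 (0.927), CRK13 (0.899) and ICS1 (0.886), and PBS3 nearest AT1G57630 (0.947), CRK39 (0.915) and CBP60g (0.911). Of the activators, SARD1 was nearest MPK11 (0.922), ADR1-L1 (0.921) and CRK37 (0.897), and CBP60g nearest HR4 (0.955), AT5G39670 (0.944) and NUDT7 (0.934). EDS1 was nearest RING1 (0.894), AT5G39670 (0.892) and NUDT6 (0.885), and PAD4 nearest PBP1 (0.887), EDS1 (0.878) and AT5G25260 (0.861). Among the receptors, NPR1 was nearest PP2-B10 (0.92), KNAT4 (0.91) and RK1 (0.907), and NPR3 nearest AT3G51660 (0.887), LEJ1 (0.883) and AT4G18950 (0.878). NPR4 was nearest AT2G25200 (0.886, or 0.802 over the 21 libraries not in doubt), AT1G74940 (0.881) and AT3G57750 (0.859). No gene was near both a synthesis member and a receptor in these lists. Between members r was positive for every pair. The highest value was that of PBS3 and CBP60g (0.911), and ICS1 and EDS5 (0.886), PBS3 and SARD1 (0.882) and EDS1 and PAD4 (0.878) were also high. The lowest value between members was that of NPR4 and CBP60g (0.207), and over the 21 libraries not in doubt that of NPR4 and PBS3 (0.093).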

How the data were processed

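Leaf RNA was sequenced as unstranded 150 bp paired-end reads. The deposited values are log2 CPM (reads per M reads of the library) that the authors computed from reads per gene with 0.5 added to each count and 1 to the total. The submitters' processing notes name FastQC, Trim Galore, Salmon, DESeq2, DESeq 1.18.0 and the TAIR10 build. Each deposited column sums 3 technical replicates, and the 24 columns are called libraries. The study's methods call the columns biological replicates and give their number once as 3 and once as 2. The deposited table holds 2 a group, and how they relate to the pools of plants is not given in the sources used here. P-values therefore measure spread between columns of the same group. For each gene that spread is 1 estimate shared by the 12 groups, whose replicates differ in closeness. Group means were fitted across all 18603 genes with limma 3.58.1 in R 4.3.3 (1 model of 12 groups, trended prior, two-sided), with Benjamini-Hochberg adjustment within each comparison over all genes. An exact test of 2 against 2 libraries could not go below p = 0.333. A count test was not used, because the deposited unit is log2. The fitting steps were tested on simulated counts with equal dispersion in all genes and groups. That setting does not cover the unequal spread between replicates of the groups described here. Tables and plots were made with Python 3.11.15, pandas 2.3.3, numpy 2.4.6 and matplotlib 3.10.9. Alternatives were median centring, quantile normalization, a higher pseudocount, a filter on low values, no trend, no fold limit, each time point apart, a replicate block, without the 3 libraries in doubt, and each library left out. Named genes were the 10 members, the near copies ICS2 and EDS1B, PR1, PR2, PR5 and WRKY70, up to 4 called genes per other list and comparison with the largest change, and the 3 genes most like each member. The members and lists were chosen with earlier results of these data known.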

Additional observations from a re-analysis of the deposited data

Results flagged for a closer look

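For 3 genes the response to bic at 48 h differed between A1(c+) and T6(c-) by a test of the difference itself (limma, adjusted over all genes). NPR3 differed by -1.14 on the log2 scale (adjusted p = 0.0309), and lost its call in 6 of 24 omissions of 1 library and under 4 of 10 other alternatives, with adjusted p up to 0.202. ICS2 differed by -4.76 (adjusted p = 0.00273), and kept its call without each library in turn but not with each time point fitted apart (adjusted p = 0.137). BSMT1 differed by -7.81 (adjusted p = 0.046), and lost its call in 16 of 24 omissions of 1 library. The size of the BSMT1 difference is loose, since its level in A1(c+) bic 48 h replicate 1 was near the floor (0.022 CPM). The low leaf marker sums of the T6(c-) bic 48 h libraries stand beside these results, and their part in them was not tested.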

How the results depend on the processing

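No result called with all libraries or under an alternative had the opposite sign in the other of these settings. Sign changes of results called in neither were not counted. Of the 24 called changes of members, 4 kept the threshold without each library in turn: PAD4 at pH 8.3 in A1(c+) over time, and NPR3 in T6(c-) for bic against pH 5.9, for bic against pH 8.3 and over time at pH 8.3. The number of called members over the comparisons of each kind moved as follows when 1 library was left out: bic against pH 5.9 from 1 to 4 (3 with all), pH 8.3 against pH 5.9 from 0 to 3 (0), bic against pH 8.3 from 1 to 9 (4), A1(c+) against T6(c-) from 0 to 10 (3), the difference of responses from 0 to 5 (1), and 48 h against 3 h from 7 to 21 (13). The highest counts came mostly without A1(c+) bic 48 h replicate 1 or 2. Median centring gave 1 for bic against pH 5.9 and 0 for the difference of responses, and quantile normalization gave 1, 0 and 5 for A1(c+) against T6(c-). With each time point fitted apart, A1(c+) against T6(c-) gave 8 and the difference of responses 0. Without the 3 libraries in doubt, pH 8.3 against pH 5.9 gave 1, A1(c+) against T6(c-) 7 and the difference of responses 2. With no fold limit, A1(c+) against T6(c-) gave 7 and 48 h against 3 h gave 20. With the T6(c-) pH 5.9 libraries averaged as 1 sample, an alternative chosen after seeing the data, the counts were 1 for bic against pH 5.9, 1 for A1(c+) against T6(c-) and 0 for the difference of responses. The replicate numbers did not pair the libraries (correlation of deviations over 66 pairs of groups from -0.42 to 0.44, median -0.01, 27 positive), and with a replicate block the 6 counts were 3, 0, 4, 2, 1 and 10 in the order above. With 2 libraries a group, a change of the size of the spread in T6(c-) bic at 48 h could not be told from it, and the causes of these shifts were not tested.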
